A study of Mus musculus with 14 samples.

Results

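The genes described here are 37 genes named as characteristic of lung endothelial cells, the cells that line blood and lymph vessels. A probe set was counted for a gene when the platform annotation gave it that gene's symbol alone. Where a gene had several, the one with the highest mean over 14 arrays was used. Of the 37 genes, 36 had such a probe set, and Tspan7 is not analysed here. Genes above the array median in 3 or more arrays were tested, 11360 in all, and they include 33 of the 37, each above the median in all 14 arrays. Prox1 (log2 level 3.01 to 3.51), Stab2 (2.14 to 2.23) and Gja5 (2.49 to 2.63) exceeded it in 0 arrays and were not tested.

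The arrays measured total RNA of whole mouse lung. They were labelled VILI PBEF+/- (n = 3, ventilated for 4 hours, 8-12 weeks old), VALI (n = 4, ventilated for 4 hours, 18-22 weeks old), PBEF+/- (n = 3, not ventilated, 18-22 weeks old) and Control (n = 4, given PBS, 18-22 weeks old). The sample labels give a tidal volume of 40 ml/kg, whereas the series text gives 30 ml/kg and names intratracheal recombinant human PBEF, the secreted product of Nampt. The labels do not settle whether PBEF+/- is a genotype or the protein given, and no strain is stated. The description field uses the same words, lung of a control animal, for every array, so the groups rest on the titles, treatments and ages. In bulk lung, fewer endothelial cells, less RNA per endothelial cell and a change in other cells with the same transcripts cannot be told apart. Age likewise cannot be told apart from the VILI PBEF+/- group.

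Endothelial cells form the barrier between blood and the air spaces. Cadherin and immunoglobulin proteins such as Cdh5 and Esam join neighbouring cells, receptors such as the Calcrl and Ramp2 pair for adrenomedullin stabilise the junctions, and angiopoietin and VEGF receptors set how quiescent or activated the vessel is. Activated endothelium displays selectins and Icam1, which bring leukocytes to the vessel wall. Arteries, veins, capillaries and lymphatics each carry their own genes, of which Gja4 and Sema3g mark arteries, Nr2f2 and Ephb4 veins, Car4 and Gpihbp1 capillaries, and Lyve1 and Prox1 lymphatics.

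Il6, a cytokine of lung injury, went against the label in 2 arrays. Il6 read 12.75, 12.33 and 10.32 in VILI PBEF+/- replicates 1 to 3, 9.60, 9.84, 9.85 and 2.78 in VALI replicates 1 to 4, 2.10, 2.56 and 10.87 in PBEF+/- replicates 1 to 3, and 2.09, 2.13, 2.15 and 2.45 in Control replicates 1 to 4 on the log2 scale. VALI replicate 4 was thus low and PBEF+/- replicate 3 high. Counts over the 33 genes are given with all arrays as labelled and again with these 2 arrays left out, and a value of a single gene is given with its setting. Since the choice of the 2 was made on their own values, p-values without them are conditional on it. For 23 of the 33 endothelial genes VALI replicate 4 lay nearer the Control mean than the mean of the other VALI arrays, as did 67.1% of all genes tested. PBEF+/- replicate 3 lay nearer the VILI PBEF+/- mean than the mean of the other PBEF+/- arrays for 24 of the 33, as did 73.5% of all genes tested.

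Upstream sequence is shown for 2 genes that were lower in ventilated lungs in both settings, Sema3g and She, and for 2 that were higher with the 2 arrays left out, Adgrl4 and Rasip1. Each line holds the 250 bases before the annotated start, 5′ to 3′ on the gene's strand, from RefSeq (GRCm38.p6). Capitals mark AGGAAG or CGGAAG on either strand, the core bound by ETS factors, a family that includes Erg and Fli1 of endothelium.
Sema3g, chr14:31217623-31217872, plus strand: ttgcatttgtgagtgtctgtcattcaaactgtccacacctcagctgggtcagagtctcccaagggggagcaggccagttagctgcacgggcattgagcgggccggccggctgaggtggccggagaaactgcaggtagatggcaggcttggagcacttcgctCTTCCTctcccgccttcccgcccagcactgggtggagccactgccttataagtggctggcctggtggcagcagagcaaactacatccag
She, chr3:89831120-89831369, plus strand: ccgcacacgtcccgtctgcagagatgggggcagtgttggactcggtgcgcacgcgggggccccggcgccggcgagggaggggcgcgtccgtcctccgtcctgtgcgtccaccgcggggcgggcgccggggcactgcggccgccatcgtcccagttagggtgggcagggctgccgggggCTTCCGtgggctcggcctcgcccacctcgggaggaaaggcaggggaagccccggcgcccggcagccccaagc
Adgrl4, chr3:151437632-151437881, plus strand: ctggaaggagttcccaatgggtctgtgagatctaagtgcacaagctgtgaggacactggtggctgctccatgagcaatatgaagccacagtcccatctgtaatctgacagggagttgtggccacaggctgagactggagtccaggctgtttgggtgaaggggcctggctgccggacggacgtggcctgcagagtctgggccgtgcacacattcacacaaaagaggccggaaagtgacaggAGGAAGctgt
Rasip1, chr7:45627287-45627536, plus strand: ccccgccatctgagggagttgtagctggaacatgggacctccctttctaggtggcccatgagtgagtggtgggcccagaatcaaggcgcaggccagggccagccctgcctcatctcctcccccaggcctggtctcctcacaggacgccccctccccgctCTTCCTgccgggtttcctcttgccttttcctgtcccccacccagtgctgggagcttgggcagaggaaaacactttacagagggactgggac
The match lies from base -89 to -84 in Sema3g, -72 to -67 in She, -10 to -5 in Adgrl4 and -91 to -86 in Rasip1, counted from the start. Of 22 tested genes with a promoter sequence, 20 had a single one. The motif was in 12 of these 20 (60.0%), against 39.2% of all 32851 promoters of this length, which were not limited to genes with a single one. The SOX core AACAAT was in 2 of 20 (9.42% of all), the Kruppel-like site CCACACCC in 1 (3.20% of all), the AP-1 site TGANTCA in 1 (6.75% of all), the forkhead site GTAAACA in 0 (3.17% of all) and the NF-kB site in 0 (1.41% of all), each read on both strands. The sequences shown all hold a match, whereas those of Gja4, Cav2, Clec14a and Myct1, lower with the 2 arrays left out, do not. The genes that were lower and those that were higher both include promoters with the ETS core, and a match describes letters, not binding.

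The averaged ventilation comparison asks how ventilated lungs differed from unventilated lungs of the same label, as the mean of VILI PBEF+/- minus PBEF+/- and of VALI minus Control. VALI and Control were of the same age, whereas VILI PBEF+/- lungs of 8-12 weeks were set against PBEF+/- lungs of 18-22 weeks. The average therefore holds a difference in age as well as in ventilation. As labelled, 5 of the 33 endothelial genes were lower in ventilated lungs and 0 were higher. The 5 were Sema3g, a semaphorin of arterial endothelium (33.6% lower), She, an SH2 adaptor protein (39.3% lower), Egfl7, a secreted vessel protein (28.2% lower), Tmem100, a membrane protein of the BMP9 and Alk1 pathway (33.2% lower), and Adgrf5, an adhesion receptor (14.2% lower). With the 2 arrays left out, 14 were lower and 4 were higher, the 4 being Lyve1, Esam, Rasip1 and Adgrl4. All 5 genes lower as labelled were among these 14.

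Genes were called at an adjusted p under 0.05 from limma, adjusted over all 11360 genes. As labelled, 4.27% of all genes were called lower and 4.09% higher in the averaged comparison. These shares were 24.6% lower and 14.9% higher with the 2 arrays left out. The median log2 difference of the 33 genes was -0.20 as labelled, against -0.05 over all genes, and -0.24 against -0.07 with the 2 arrays left out. The call rests on single arrays: with Control 2 or 4, VALI 1, 2 or 3, PBEF+/- 1 or 2, or VILI PBEF+/- 1 or 2 left out, 0 endothelial genes were called, and without Control 3, Control 1 and VILI PBEF+/- 3 the counts were 1, 2 and 6. Calls over all genes moved as well, with 0.0% lower and 0.0% higher in these cases of 0, except 0.431% lower and 0.977% higher without Control 4. The counts of 1, 2 and 6 are given without the share of all genes and are not read as a result about the endothelial genes. Without VALI 4 the count was 13, against 14.9% lower and 8.85% higher of all genes, and without PBEF+/- 3 it was 16, against 17.9% lower and 12.2% higher.

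**Figure D1:**
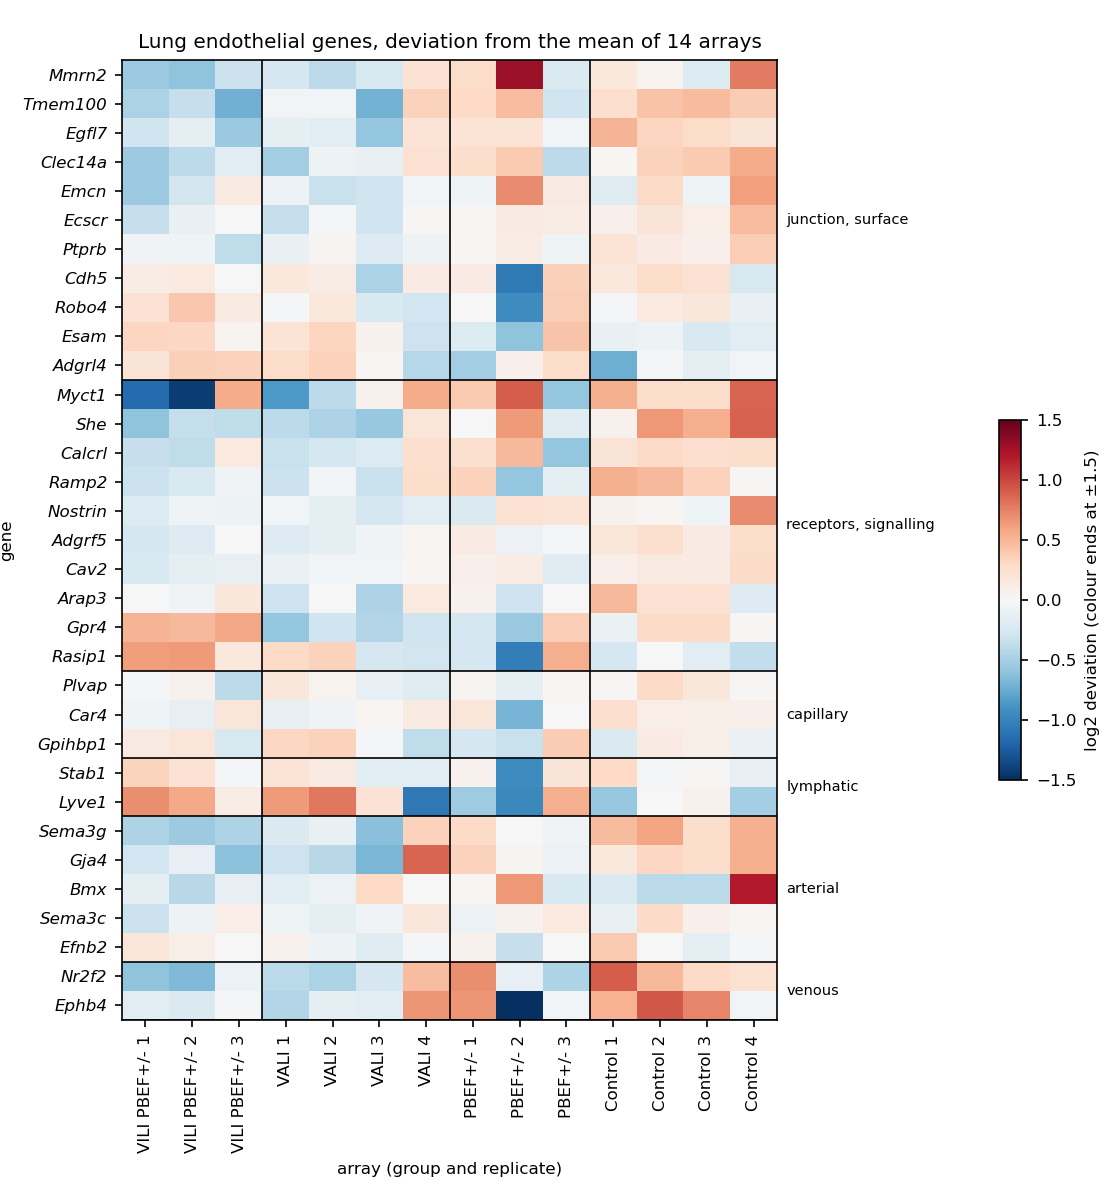
Heat map of the 33 tested endothelial genes (rows, grouped by role) in 14 arrays (columns, by group), coloured by the log2 deviation from the gene's mean over all arrays. Sema3g, She, Egfl7, Tmem100 and Adgrf5 are mostly blue (low) in VILI PBEF+/- and in VALI 1 to 3 and red (high) in Control, Lyve1 is red in the ventilated arrays other than VALI 4, and PBEF+/- 2 stands apart for Ephb4, Cdh5 and Mmrn2.

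Among the 12 junction and surface genes, of which 11 were tested, 2 were lower as labelled, and 6 were lower and 2 higher with the 2 arrays left out. Egfl7 read 11.64, 11.81 and 11.39 in VILI PBEF+/-, 11.80, 11.77, 11.36 and 12.14 in VALI, 12.15, 12.14 and 11.90 in PBEF+/-, and 12.45, 12.27, 12.21 and 12.13 in Control (log2 levels, replicates in order). Tmem100 read 13.42, 13.55 and 13.17 in VILI PBEF+/-, 13.86, 13.86, 13.18 and 14.24 in VALI, 14.19, 14.36 and 13.60 in PBEF+/-, and 14.15, 14.32, 14.36 and 14.27 in Control. For both genes VILI PBEF+/- lay wholly below PBEF+/-, and VALI below Control apart from VALI 4. The averaged log2 difference was -0.48 ± 0.11 (SE, adjusted p = 0.0361 from limma) for Egfl7 and -0.58 ± 0.15 (adjusted p = 0.0415) for Tmem100 as labelled. It was -0.58 ± 0.10 (adjusted p = 0.00128) and -0.77 ± 0.12 (adjusted p = 0.000625) with the 2 arrays left out.

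Ptprb, the phosphatase VE-PTP that acts on Tek and Cdh5, read 13.53, 13.52 and 13.21 in VILI PBEF+/-, 13.47, 13.62, 13.39 and 13.50 in VALI, 13.61, 13.70 and 13.52 in PBEF+/-, and 13.79, 13.71, 13.67 and 13.95 in Control. Its averaged difference was -0.24 ± 0.07 as labelled (adjusted p = 0.052) and -0.26 ± 0.08 with the 2 arrays left out (adjusted p = 0.0211), so it passed in the second setting alone. Clec14a, a lectin-like surface protein, read 11.53, 11.68 and 11.89 in VILI PBEF+/-, 11.55, 11.99, 11.95 and 12.30 in VALI, 12.33, 12.46 and 11.67 in PBEF+/-, and 12.10, 12.42, 12.47 and 12.63 in Control. Mmrn2, the matrix partner of Clec14a, read 9.68, 9.63 and 9.91 in VILI PBEF+/-, 9.98, 9.84, 9.99 and 10.44 in VALI, 10.51, 11.53 and 10.01 in PBEF+/-, and 10.39, 10.28, 10.02 and 11 in Control. Without the 2 arrays, every ventilated array lay below every unventilated one for this ligand and receptor pair, at 35.5% lower for Clec14a (-0.63 ± 0.11, adjusted p = 0.00135) and 45.7% lower for Mmrn2 (-0.88 ± 0.19, adjusted p = 0.00446). As labelled neither passed (adjusted p = 0.0641 and 0.0714), and PBEF+/- 2 was the highest array for Mmrn2. Ecscr, a regulator of endothelial migration, ranged over 11.11 to 11.46 in VILI PBEF+/-, 11.10 to 11.47 in VALI, 11.48 to 11.58 in PBEF+/- and 11.53 to 11.92 in Control. Its averaged difference was -0.33 ± 0.10 (adjusted p = 0.02) with the 2 arrays left out and -0.30 ± 0.09 (adjusted p = 0.0527) as labelled.

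Esam, an adhesion molecule of tight junctions, read 13.17, 13.15 and 12.88 in VILI PBEF+/-, 13.06, 13.17, 12.91 and 12.53 in VALI, 12.64, 12.25 and 13.27 in PBEF+/-, and 12.73, 12.78, 12.62 and 12.69 in Control. Adgrl4, an adhesion receptor of vessel sprouting, read 12.15, 12.32 and 12.30 in VILI PBEF+/-, 12.23, 12.31, 11.99 and 11.53 in VALI, 11.44, 12.03 and 12.23 in PBEF+/-, and 11.23, 11.95, 11.82 and 11.92 in Control. In the second setting Esam was 39.7% higher in ventilated lungs (0.48 ± 0.08, adjusted p = 0.00126), with no overlap between ventilated and unventilated arrays. Adgrl4 was 40.0% higher (0.49 ± 0.14, adjusted p = 0.0195), and VALI 3 overlapped PBEF+/- 2. As labelled the differences were 0.28 ± 0.14 (adjusted p = 0.189) and 0.32 ± 0.16 (adjusted p = 0.183). The 3 junction genes that passed in neither setting of the averaged comparison were Emcn (-0.48 ± 0.18 with the 2 arrays left out, adjusted p = 0.0558), the guidance receptor Robo4 (0.32 ± 0.15, adjusted p = 0.109) and the cadherin Cdh5 (0.19 ± 0.19, adjusted p = 0.459). As labelled these differences were -0.42 ± 0.16 for Emcn, 0.15 ± 0.17 for Robo4 and 0.07 ± 0.20 for Cdh5 (adjusted p = 0.0955, 0.547 and 0.808). For Cdh5, the defining junction protein, VILI PBEF+/- arrays lay at 12.81 to 12.96, and PBEF+/- 2 was the lowest array of all at 11.75. A further probe set of Cdh5 gave 0.30 as labelled and 0.62 with the 2 arrays left out, and was not tested on its own.

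**Figure D2:**
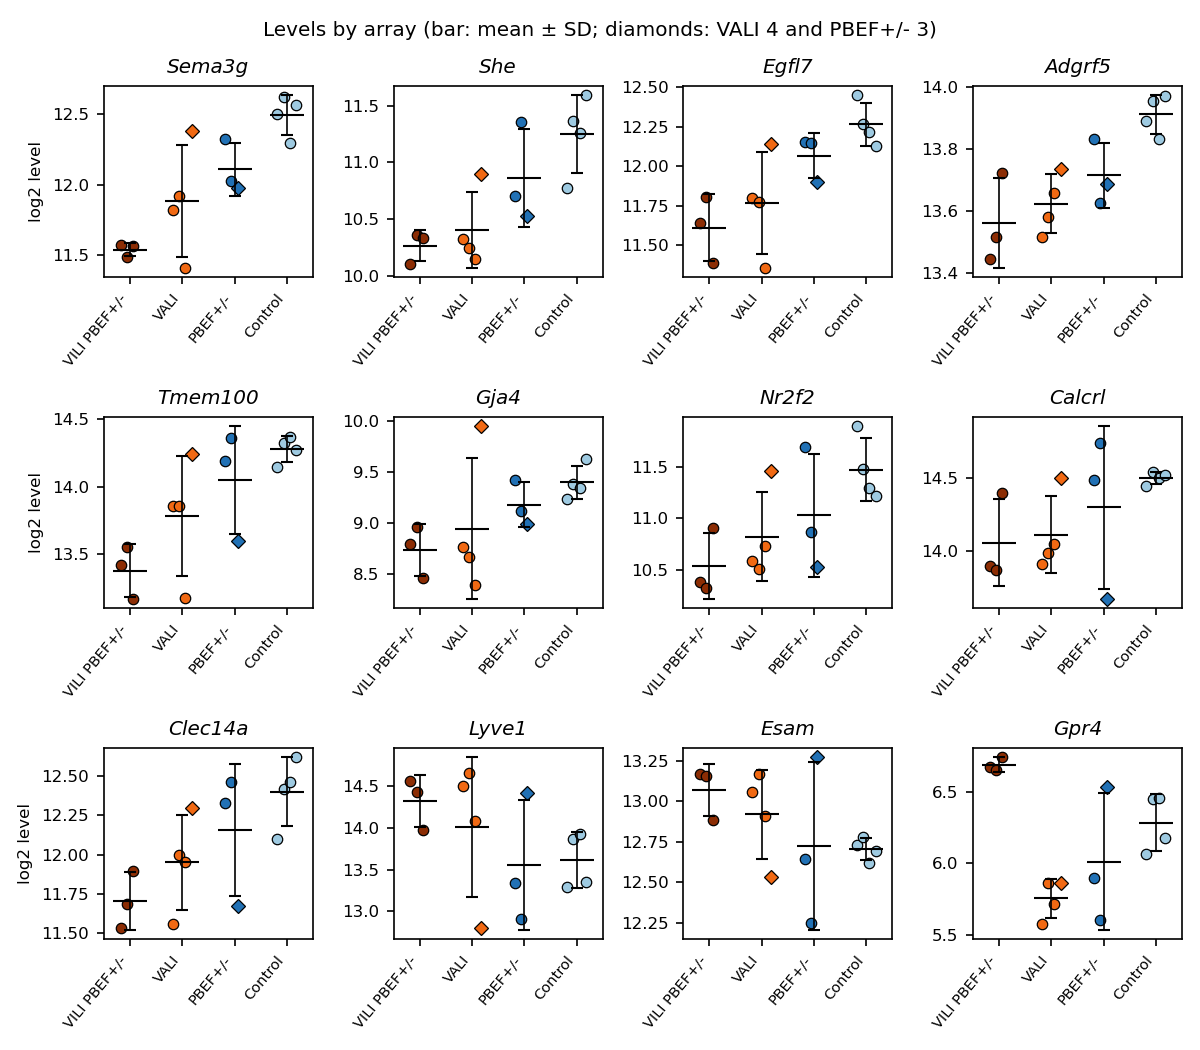
Log2 levels of 12 endothelial genes in each array, with a panel per gene and the 4 groups along the x axis. Points are arrays, the bar is the group mean ± SD over all arrays as labelled, and diamonds are VALI 4 and PBEF+/- 3. VALI 4 lies within the Control range for Sema3g, Tmem100 and Calcrl, and PBEF+/- 3 lies within the VILI PBEF+/- range for Lyve1.

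Of 10 receptor and signalling genes, all tested, 2 were lower as labelled, and 5 were lower and 1 higher with the 2 arrays left out. She read 10.11, 10.36 and 10.33 in VILI PBEF+/-, 10.33, 10.25, 10.15 and 10.90 in VALI, 10.70, 11.35 and 10.53 in PBEF+/-, and 10.78, 11.36, 11.26 and 11.60 in Control. Adgrf5 read 13.45, 13.52 and 13.72 in VILI PBEF+/-, 13.52, 13.58, 13.66 and 13.74 in VALI, 13.83, 13.63 and 13.69 in PBEF+/-, and 13.89, 13.95, 13.83 and 13.97 in Control. VILI PBEF+/- lay wholly below PBEF+/- for She, whereas 1 VILI PBEF+/- array overlapped PBEF+/- for Adgrf5. The averaged difference was -0.72 ± 0.16 (adjusted p = 0.0332) for She and -0.22 ± 0.06 (adjusted p = 0.0409) for Adgrf5 as labelled, and -0.88 ± 0.15 (adjusted p = 0.000961) and -0.25 ± 0.06 (adjusted p = 0.00989) with the 2 arrays left out. A further probe set of Adgrf5 gave 0.06 as labelled and 0.13 in the other setting, so its probe sets disagreed in direction.

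Cav2, a caveolin partner of Cav1, read 13.96, 14.06 and 14.07 in VILI PBEF+/-, 14.10, 14.16, 14.15 and 14.22 in VALI, 14.27, 14.31 and 14.01 in PBEF+/-, and 14.27, 14.33, 14.32 and 14.48 in Control. The spread was small, and the averaged difference was -0.24 ± 0.05 (adjusted p = 0.00274) with the 2 arrays left out and -0.18 ± 0.05 (adjusted p = 0.0567) as labelled. Calcrl, the adrenomedullin and CGRP receptor, read 13.90, 13.87 and 14.40 in VILI PBEF+/-, 13.91, 13.99, 14.05 and 14.50 in VALI, 14.49, 14.74 and 13.67 in PBEF+/-, and 14.45, 14.54, 14.50 and 14.52 in Control. Calcrl was 31.1% lower with the 2 arrays left out (-0.54 ± 0.09, adjusted p = 0.000939) and did not pass as labelled (-0.32 ± 0.15, adjusted p = 0.175). Its further probe sets gave -1.22 and 1.62 with the 2 arrays left out and so disagreed with each other. Its partner Ramp2, which directs Calcrl to adrenomedullin, did not pass (-0.33 ± 0.15, adjusted p = 0.0995, in that setting, and -0.26 ± 0.14, adjusted p = 0.215, as labelled).

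Myct1, a small membrane protein of endothelium, ranged over 9.44 to 11.42 in VILI PBEF+/-, 10.01 to 11.43 in VALI, 10.29 to 11.78 in PBEF+/- and 11.13 to 11.75 in Control. It had the lowest averaged difference of the 33 with the 2 arrays left out (-1.10 ± 0.32, adjusted p = 0.0174), although VILI PBEF+/- 3 overlapped the unventilated arrays, and it did not pass as labelled (-0.78 ± 0.33, adjusted p = 0.13). Rasip1, a Ras effector needed for vessel lumens and junctions, read 11.18, 11.19 and 10.70 in VILI PBEF+/-, 10.85, 10.89, 10.29 and 10.27 in VALI, 10.29, 9.51 and 11.10 in PBEF+/-, and 10.30, 10.55, 10.38 and 10.18 in Control. Its averaged difference was 0.72 ± 0.16 (adjusted p = 0.00512) with the 2 arrays left out and 0.47 ± 0.21 (adjusted p = 0.14) as labelled. Arap3 and the nitric oxide synthase partner Nostrin did not pass in either setting, at -0.14 ± 0.13 and -0.23 ± 0.14 with the 2 arrays left out and -0.11 ± 0.12 and -0.26 ± 0.12 as labelled. Further probe sets of Arap3 gave 0.18 and 0.0028 with the 2 arrays left out, so its probe sets disagreed in direction.

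Gpr4, a proton-sensing receptor, was the 1 gene of the 33 that passed in both ventilation comparisons with opposite signs, in the setting with the 2 arrays left out. It read 6.67, 6.65 and 6.75 in VILI PBEF+/-, 5.58, 5.86, 5.72 and 5.86 in VALI, 5.90, 5.60 and 6.53 in PBEF+/-, and 6.06, 6.45, 6.45 and 6.17 in Control. Every VILI PBEF+/- array lay above every PBEF+/- array, and every VALI array below every Control array. In that setting Gpr4 was 92.1% higher in VILI PBEF+/- than in PBEF+/- (0.94 ± 0.18, adjusted p = 0.00437) and 32.5% lower in VALI than in Control (-0.57 ± 0.15, adjusted p = 0.0274). The test of the difference between both responses gave 1.21 ± 0.29 as labelled (adjusted p = 0.732) and 1.51 ± 0.24 with the 2 arrays left out (adjusted p = 0.289), and neither passed.

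The 3 capillary genes did not pass in any comparison, in either setting. Car4, the carbonic anhydrase of the larger alveolar capillary cell, read 12.98, 12.91 and 13.21 in VILI PBEF+/-, 12.90, 12.98, 13.05 and 13.17 in VALI, 13.21, 12.33 and 13.04 in PBEF+/-, and 13.28, 13.12, 13.11 and 13.10 in Control. Its averaged difference was 0.02 ± 0.12 as labelled, a sign that changed in 9 of 29 alternative settings. Gpihbp1, which carries lipoprotein lipase across capillaries, read 12.50, 12.54 and 12.12 in VILI PBEF+/-, 12.67, 12.70, 12.33 and 11.98 in VALI, 12.10, 12.02 and 12.74 in PBEF+/-, and 12.14, 12.49, 12.45 and 12.26 in Control. Its difference was 0.09 ± 0.14 as labelled and 0.28 ± 0.10 with the 2 arrays left out (adjusted p = 0.678 and 0.0501). Plvap, the diaphragm protein of fenestrae and caveolae, lay at 12.77 to 13.22 in VILI PBEF+/-, 12.98 to 13.32 in VALI, 13.02 to 13.19 in PBEF+/- and 13.17 to 13.44 in Control, with a difference of -0.12 ± 0.08 as labelled (adjusted p = 0.34) and -0.08 ± 0.09 with the 2 arrays left out (adjusted p = 0.522).

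Lyve1, the hyaluronan receptor of lymphatic endothelium, had the highest averaged difference of the 33 genes in both settings. Lyve1 read 14.56, 14.43 and 13.97 in VILI PBEF+/-, 14.51, 14.66, 14.09 and 12.80 in VALI, 13.34, 12.90 and 14.42 in PBEF+/-, and 13.29, 13.87, 13.93 and 13.35 in Control. VALI 4 was the lowest array of all, and PBEF+/- 3 lay with the ventilated arrays. Without these 2, all ventilated arrays lay above all unventilated ones, at 101% higher (1.0 ± 0.16, adjusted p = 0.000762), against 0.59 ± 0.30 as labelled (adjusted p = 0.19). Stab1, a scavenger receptor also made by macrophages, read 9.71, 9.59 and 9.35 in VILI PBEF+/-, 9.57, 9.51, 9.21 and 9.20 in VALI, 9.43, 8.43 and 9.57 in PBEF+/-, and 9.68, 9.36, 9.39 and 9.25 in Control. It did not pass (0.18 ± 0.16 as labelled, adjusted p = 0.458, and 0.31 ± 0.16 with the 2 arrays left out, adjusted p = 0.149). Prox1, the transcription factor that defines lymphatic identity, was below the array median in every array, so Lyve1 stands here without it. Lyve1 is also known from tissue macrophages, and the macrophage and monocyte markers are given with the other cell types.

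Among 6 arterial genes, of which 5 were tested, Sema3g was lower as labelled, and Sema3g and Gja4 were lower with the 2 arrays left out. Sema3g read 11.57, 11.49 and 11.57 in VILI PBEF+/-, 11.82, 11.92, 11.41 and 12.38 in VALI, 12.32, 12.03 and 11.98 in PBEF+/-, and 12.50, 12.62, 12.30 and 12.56 in Control. All VILI PBEF+/- arrays lay below all PBEF+/- arrays, and VALI 4 was the 1 VALI array within the Control range. Its averaged difference was -0.59 ± 0.12 as labelled (adjusted p = 0.0308) and -0.71 ± 0.10 with the 2 arrays left out (adjusted p = 0.000332), the smallest adjusted p of the 33 genes in both settings. Gja4, the gap junction protein connexin 37, read 8.80, 8.96 and 8.46 in VILI PBEF+/-, 8.77, 8.67, 8.40 and 9.96 in VALI, 9.42, 9.12 and 9.0 in PBEF+/-, and 9.24, 9.39, 9.35 and 9.63 in Control. VALI 4 was the highest array for Gja4, which was 36.7% lower without the 2 arrays (-0.66 ± 0.12, adjusted p = 0.00154) and did not pass as labelled (-0.45 ± 0.21, adjusted p = 0.155). Sema3c, a guidance protein, lay at 13.56 to 13.98 in VILI PBEF+/-, 13.73 to 14.04 in VALI, 13.80 to 14.02 in PBEF+/- and 13.76 to 14.17 in Control and did not pass (-0.11 ± 0.08 as labelled, adjusted p = 0.341, and -0.12 ± 0.09 with the 2 arrays left out, adjusted p = 0.278). The tyrosine kinase Bmx (-0.20 ± 0.24 as labelled, -0.30 ± 0.27 with the 2 arrays left out) and the arterial ephrin Efnb2 (0.04 ± 0.09 and 0.05 ± 0.10) did not pass either. Further probe sets of Efnb2 gave larger differences of 0.26, 0.54 and 0.53 with the 2 arrays left out and were not tested on their own.

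Both venous genes were tested, and Nr2f2 was lower with the 2 arrays left out. Nr2f2, the transcription factor that sets venous identity, read 10.39, 10.32 and 10.91 in VILI PBEF+/-, 10.59, 10.51, 10.74 and 11.46 in VALI, 11.69, 10.87 and 10.53 in PBEF+/-, and 11.90, 11.47, 11.29 and 11.22 in Control. It was 42.5% lower without the 2 arrays (-0.80 ± 0.17, adjusted p = 0.00376), with VILI PBEF+/- 3 just above PBEF+/- 2, and -0.57 ± 0.20 as labelled (adjusted p = 0.0847). Ephb4, the venous receptor of Efnb2, read 9.67, 9.62 and 9.81 in VILI PBEF+/-, 9.39, 9.70, 9.67 and 10.50 in VALI, 10.50, 7.57 and 9.80 in PBEF+/-, and 10.36, 10.76, 10.57 and 9.79 in Control. PBEF+/- 2 lay far below all other arrays, and the difference was -0.07 ± 0.37 as labelled (adjusted p = 0.902). The value turns on that array: without PBEF+/- 2 it was -0.50 (adjusted p = 0.155), whereas it was 0.05 without PBEF+/- 3 and 0.23 without PBEF+/- 1. Ephb4 was called lower in 3 of 29 alternatives, namely with array weights (-0.68, adjusted p = 0.0152), with the female-pattern arrays alone (-0.76, adjusted p = 0.0399), and with the female-pattern arrays after the 2 were left out (-0.94, adjusted p = 0.000549).

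**Figure D3:**
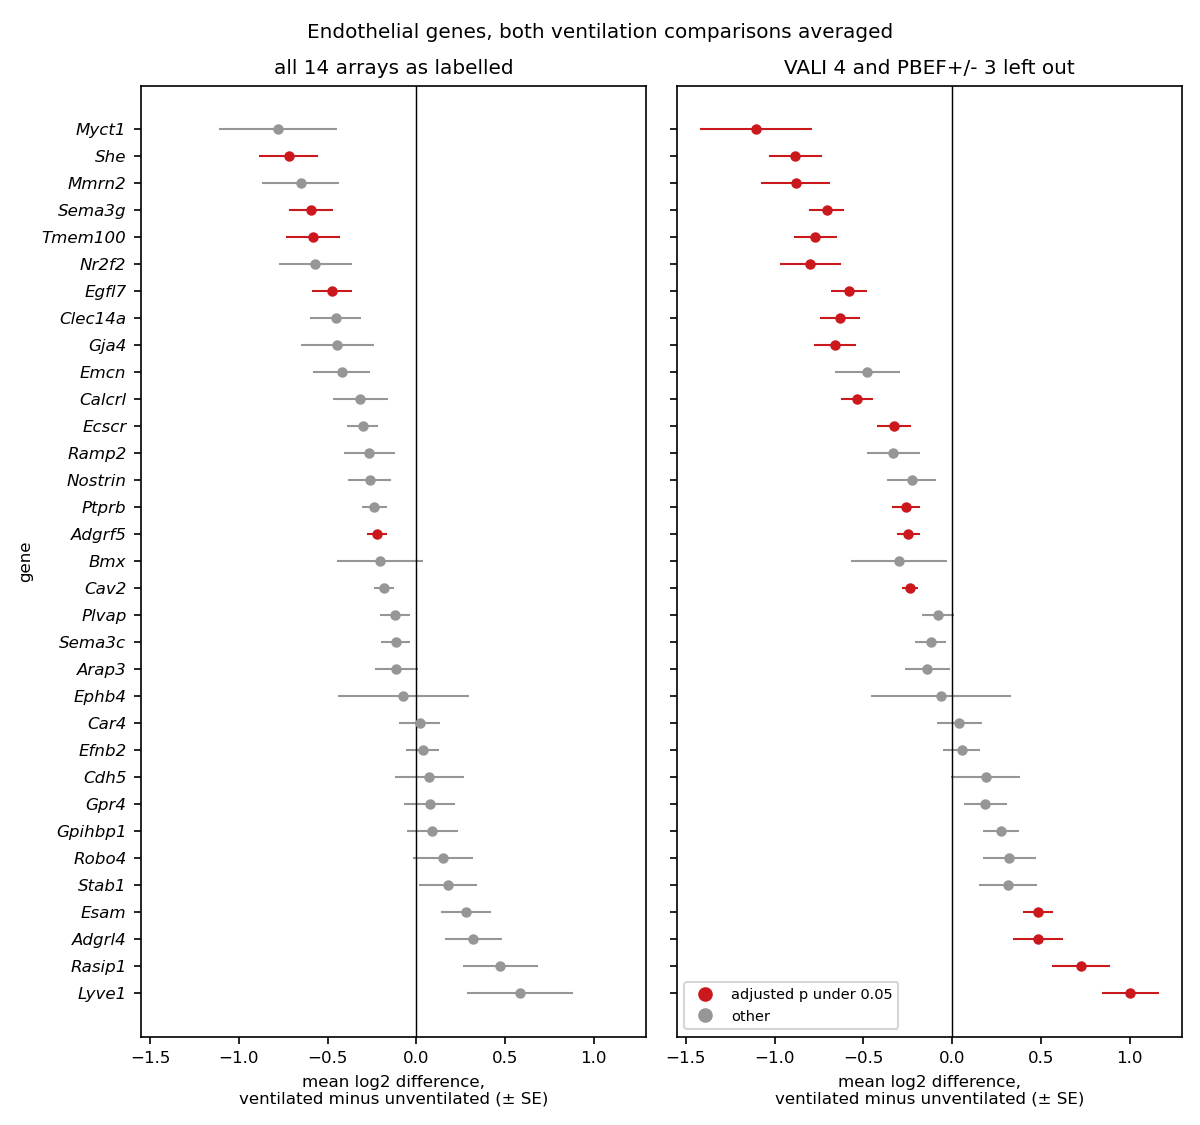
Averaged log2 difference ± SE, ventilated minus unventilated, for each of the 33 tested endothelial genes, with all 14 arrays as labelled (left panel) and with VALI 4 and PBEF+/- 3 left out (right panel). Red points passed an adjusted p of 0.05, which holds for 5 genes on the left, all lower, and for 18 on the right, 14 lower and 4 higher.

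In both settings 22 of the 33 endothelial genes had a negative averaged difference and 11 a positive one, while 57.3% of all genes as labelled and 58.3% with the 2 arrays left out had a negative one. With the 2 arrays left out, 10 of the 33 were lower in all 6 ventilated arrays than in all 6 unventilated ones, namely Egfl7, Mmrn2, Clec14a, Ecscr, Tmem100, Calcrl, She, Cav2, Gja4 and Sema3g, against 12.6% of all genes tested. Esam and Lyve1 were higher in every ventilated array, against 7.79% of all genes tested. By the sex pattern described below, these ventilated arrays were all female and the unventilated ones mixed. Further probe sets of the 33 genes, 31 of 17 genes, had the sign of the probe set used in 27 cases.

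VALI against Control asks what ventilation changed in lungs without the PBEF+/- label. As labelled 0 of the 33 endothelial genes were called by limma, as were 0.0% of all genes. At an unadjusted p under 0.05, 12 of the 33 were lower and 0 higher, against 18.3% of all genes in either direction. The smallest adjusted p was that of She (44.3% lower, -0.84 ± 0.22, adjusted p = 0.108), and Sema3g and Adgrf5 followed (-0.61 ± 0.16 and -0.29 ± 0.08, adjusted p = 0.119 each). With the 2 arrays left out 12 were lower and 1 was higher, against 10.5% lower and 6.53% higher of all genes. She (50.3% lower), Gja4 (42.1% lower), Sema3g (41.7% lower), Nr2f2 (44.8% lower) and Gpr4 were among the 12, and Lyve1 (74.8% higher) was the 1 that was higher. Without VALI 1 as well, 5 were lower and 0 higher, against 4.6% lower and 4.07% higher of all genes. Without VALI 2 as well, 8 were lower and 0 higher, against 5.22% and 3.93%.

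VILI PBEF+/- against PBEF+/- makes the same comparison between lungs that carry the PBEF+/- label, with ages of 8-12 and 18-22 weeks. As labelled 0 of the 33 were called by limma, as were 0.0% of all genes, and 7 had an unadjusted p under 0.05 against 20.7% of all genes. With the 2 arrays left out, which leaves 2 PBEF+/- arrays, 8 were lower and 5 higher, against 15.3% lower and 11.2% higher of all genes. The lower genes included Mmrn2 (58.8% lower), Tmem100 (46.2% lower) and She (41.0% lower). The 5 higher genes were Lyve1 (130% higher), Rasip1 (118% higher), Gpr4 (92.1% higher), Robo4 (64.6% higher) and Esam (54.0% higher). In this setting 7 genes were lower in VALI and also in VILI PBEF+/-, each against its own unventilated group, and Lyve1 was higher in both. Of all genes tested, 6.85% were lower in both, 4.69% were higher in both, and 0.0352% passed in both with opposite signs, as Gpr4 did. PBEF+/- 2 was the lowest of 14 arrays for Cdh5, Robo4, Esam, Rasip1, Stab1 and Ephb4, among others, and the highest for Mmrn2, Calcrl, Emcn and Myct1, and it is 1 of the 2 PBEF+/- arrays left. With PBEF+/- 2 left out as well, which leaves 1 PBEF+/- array, 3 were lower and 2 higher, against 9.96% and 6.44% of all genes. Without PBEF+/- 1 in its place 7 were lower and 9 higher, against 14.6% and 18.0%. Without VILI PBEF+/- 1 as well, 3 were lower and 4 higher, against 8.9% and 7.12%.

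**Figure D4:**
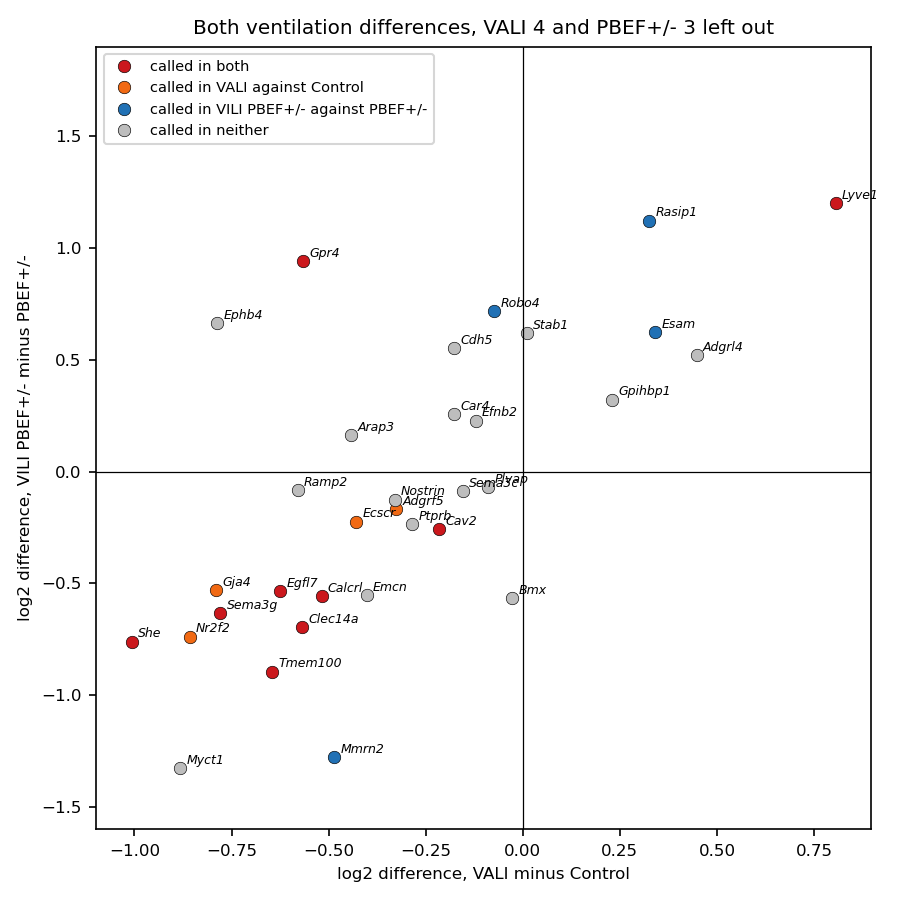
Log2 difference of VILI PBEF+/- minus PBEF+/- (y axis) against that of VALI minus Control (x axis) for the 33 tested endothelial genes, with VALI 4 and PBEF+/- 3 left out. Colours give the comparison in which a gene passed. She, Sema3g, Egfl7, Calcrl, Clec14a, Tmem100 and Cav2 lie in the lower left and Lyve1 in the upper right, while Gpr4 passed in both with opposite signs.

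PBEF+/- against Control asks how unventilated lungs with the PBEF+/- label differed from PBS lungs. limma called 0 of the 33 endothelial genes as labelled, and 3 had an unadjusted p under 0.05 against 8.26% of all genes, and 0.0% of all genes were called. It called 0 again with the 2 arrays left out (0.0% of all genes), with 4 of 33 at an unadjusted p under 0.05 against 11.1% of all genes. Without PBEF+/- 1 as well, which leaves PBEF+/- 2 alone in its group, 8 were lower and 1 higher, against 13.5% lower and 3.2% higher of all genes. The values of 28 of the 33 were lower in PBEF+/- than in Control as labelled, against 66.7% of all genes, with a median log2 difference of -0.20 against -0.09 over all genes. Ramp2 (-0.47 ± 0.20), Sema3g (-0.39 ± 0.17) and Adgrf5 (-0.20 ± 0.08) lay lower without passing (adjusted p = 0.593, 0.598 and 0.593).

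VILI PBEF+/- against VALI compares the ventilated lungs, which also differ in age. limma called 0 of the 33 in both settings, with 1 at an unadjusted p under 0.05 in each, while 0.0% of all genes were called as labelled (10.5% at an unadjusted p under 0.05) and 0.114% with the 2 arrays left out (7.55% at an unadjusted p under 0.05). The gene nearest to passing was Gpr4, at 0.94 ± 0.20 as labelled (adjusted p = 0.221) and 0.97 ± 0.16 with the 2 arrays left out (adjusted p = 0.0634). The difference between both ventilation responses was called for 0 of the 33 in both settings (0.0% of all genes in each). At an unadjusted p under 0.05 it held 1 gene as labelled, Gpr4, against 5.58% of all genes, and 4 with the 2 arrays left out, against 10.4% of all genes. Without VILI PBEF+/- 3 as well it was called positive for 1 gene and negative for 0, against 0.299% and 0.0616% of all genes. Without PBEF+/- 1 as well it was called positive for 8 and negative for 1, against 8.73% and 2.2%.

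Other endothelial genes, 28 that are not among the 37, were described in the same way. As labelled 3 of 28 were lower and 0 higher in the averaged comparison. They were the adhesion molecule Icam2 (-0.36 ± 0.07, adjusted p = 0.028), the angiopoietin receptor Tek (-0.64 ± 0.14, adjusted p = 0.0327) and the apelin receptor Aplnr (-1.05 ± 0.25, adjusted p = 0.0364). The counts were 11 lower and 3 higher of 28 with the 2 arrays left out, Tek at -0.85 ± 0.08 and the flow-induced transcription factor Klf2 at -1.65 ± 0.21 among the lower ones. Klf2 did not pass as labelled (-1.18 ± 0.35, adjusted p = 0.0534).

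Of 8 endothelial activation genes 6 were tested, and the selectin Sele and the chemokine receptor Ackr1 were below the filter. P-selectin Selp (2.55 ± 0.48, adjusted p = 0.028) and Icam1 (0.34 ± 0.09, adjusted p = 0.0408) were higher as labelled, and 0 were lower. With VALI 4 and PBEF+/- 3 left out Selp was at 3.19 ± 0.33 and Icam1 at 0.40 ± 0.09 (adjusted p = 4.75e-05 and 0.00602). The peptide Edn1 did not pass as labelled (0.46 ± 0.14, adjusted p = 0.0575). Angpt2, the Tek ligand that antagonises Angpt1, was lower with the 2 arrays left out (-0.78 ± 0.15, adjusted p = 0.00216) and did not pass as labelled (adjusted p = 0.084).

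Markers of other cell types moved in the same arrays, and their part in the endothelial differences was not tested. Neutrophil markers were higher in 6 of 11 tested as labelled, among them Il1r2 (4.92 ± 0.85) and Clec4e (3.78 ± 0.71), and in 9 of 11 with the 2 arrays left out. Their mean deviation from the average array was 1.5 to 1.81 in VILI PBEF+/-, -1.49 to 2.07 in VALI, -1.98 to 1.45 in PBEF+/- and -2.13 to -1.21 in Control. The same mean for the 33 endothelial genes was -0.14 to -0.06 in VILI PBEF+/-, -0.22 to 0.05 in VALI, -0.13 to 0.07 in PBEF+/- and 0.12 to 0.22 in Control. All 4 Control arrays thus lay above all other arrays for the endothelial genes.

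Club and ciliated cell markers were lower in 5 of 10 as labelled (Cyp2f2 at -0.52 ± 0.09), alveolar type I markers in 2 of 10 (Cav1 at -0.21 ± 0.05), fibroblast markers in 2 of 11 (Npnt at -0.29 ± 0.06) and alveolar type II markers in 1 of 11 (Sftpc at -0.15 ± 0.04), with 0 higher in these lists. The lower counts were 7, 6, 3 and 1 in the other setting, and 1 club and ciliated marker was higher. Cav1 is expressed by endothelium as well. B cell markers were called in 0 of 6 as labelled and lower in 6 of 6 with the 2 arrays left out (Cd79b at -1.40 ± 0.20). Smooth muscle and pericyte markers were called in 0 and 1 of 11 in these settings, and heart markers in 0 and 4 of 8, all lower. The macrophage and monocyte markers had 1 of 10 higher as labelled (Cd14 at 1.30 ± 0.27), and 2 higher and 2 lower with the 2 arrays left out. The mannose receptor Mrc1, which Lyve1-bearing macrophages share, and Cd14 were the higher ones in that setting (0.74 ± 0.19, adjusted p = 0.00965, and 1.65 ± 0.20, adjusted p = 0.000119). The lower ones were the monocyte chemokine receptor Ccr2 (-0.97 ± 0.22, adjusted p = 0.00564) and the macrophage growth factor receptor Csf1r (-0.34 ± 0.08, adjusted p = 0.00558). T and NK cell markers were called in 0 of 7 as labelled, and 1 higher and 2 lower in the other setting. Of 4 skeletal muscle markers tested, Acta1 was higher in both settings (5.71 ± 1.18 as labelled). The mean deviation of these 4 markers was 2.49 in VILI PBEF+/- 2, 6.94 in VALI 1 and 7.76 in VALI 4, against -1.27 to -0.80 in the other ventilated arrays and -2.46 to -0.95 in the unventilated arrays, so 3 arrays stood apart.

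**Figure D5:**
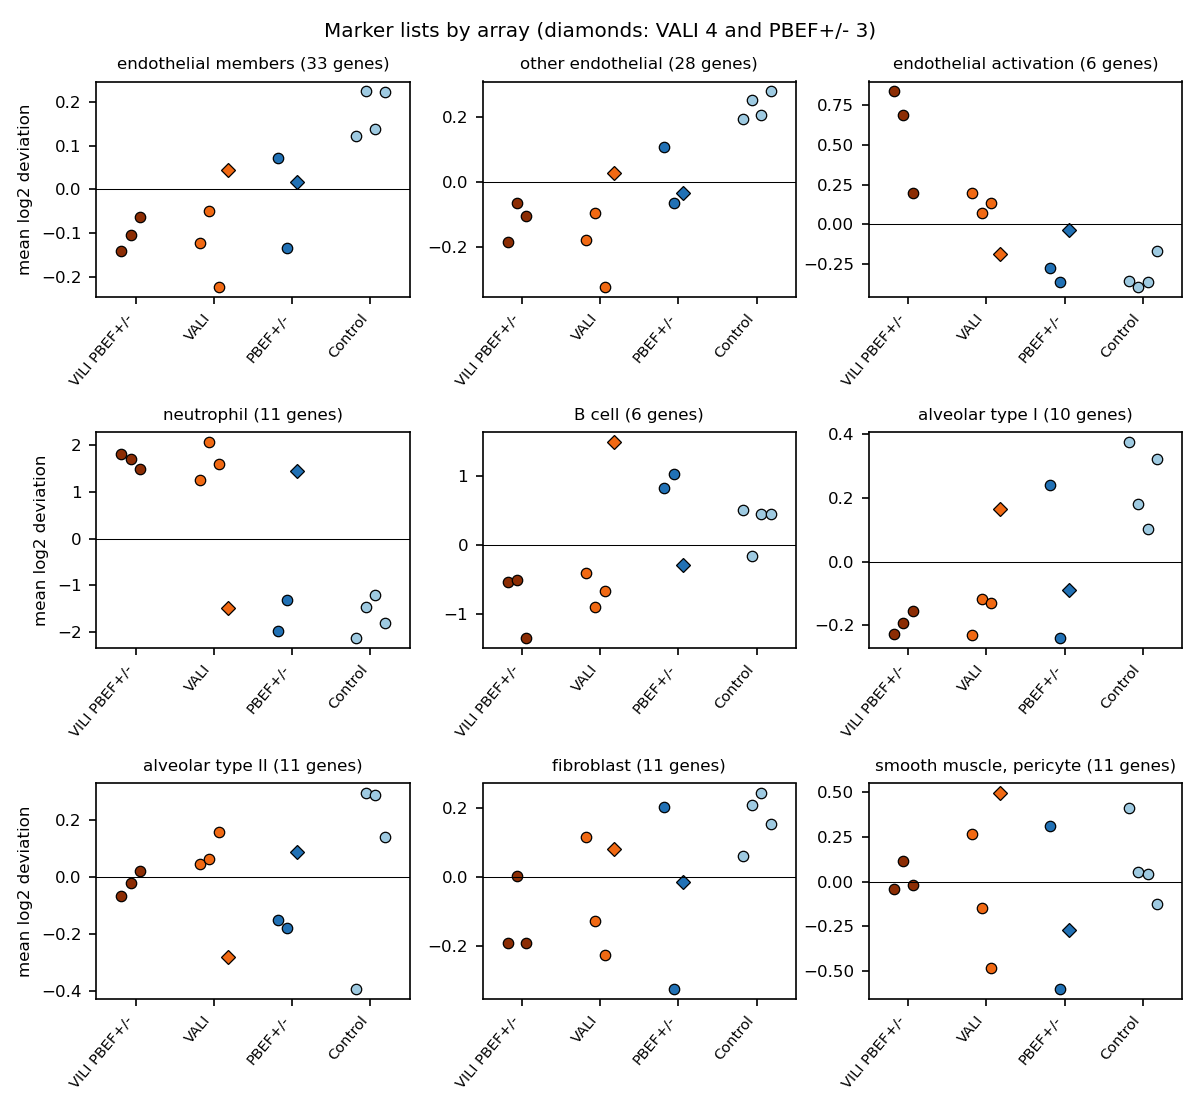
Mean log2 deviation of each marker list from its mean over all arrays, with a panel per list, a point per array and the 4 groups along the x axis; diamonds are VALI 4 and PBEF+/- 3. The Control arrays are the highest for both endothelial lists, and the neutrophil list separates VALI 4 and PBEF+/- 3 from the other arrays of their groups.

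Sex also differed between the groups. Xist, read as a female pattern when high, was high in 3 of 3 VILI PBEF+/- arrays, 3 of 4 VALI arrays, 2 of 3 PBEF+/- arrays and 2 of 4 Control arrays, and VALI 4 had the male pattern. With the 2 arrays left out, all ventilated arrays thus had the female pattern, whereas Control 1, Control 4 and PBEF+/- 2 had the male pattern. With the sex pattern in the model 0 endothelial genes were called in the averaged comparison as labelled (0 of all genes). Among the female-pattern arrays alone 6 were lower and 0 higher as labelled, against 4.61% lower and 3.79% higher of all genes. Once the 2 arrays were left out, 12 were lower and 3 higher with the sex pattern in the model, against 17.2% and 10.3% of all genes. Among the female-pattern arrays, where 1 PBEF+/- array then remains, 13 were lower and 3 higher, against 25.6% and 13.5% of all genes. The 3′ to 5′ differences of the control transcripts, a measure of RNA quality on the log2 scale, lay between 0.30 and 0.80 for Gapdh and Actb, 1.05 and 1.36 for Tfrc, and 5.46 and 8.18 for Pcx. PBEF+/- 2 was the lowest array for Pcx (5.46, the next being 6.43) and for Gapdh (0.30), and the part of RNA quality in that array's endothelial values was not tested.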

How the data were processed

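Total RNA of mouse lung was measured on 14 Affymetrix arrays, each from 6 µg of RNA per the labels. The deposited file holds the authors' log2 values of 45101 probe sets in each array, and no further scaling was applied. MAS5 and GCRMA are named, with no version or role, per the submitters' processing notes, and no annotation build was used beyond the platform's gene symbols and RefSeq promoters of GRCm38.p6. Array medians lay at 4.60 to 4.75, and the number of arrays limits the precision.

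limma 3.58.1 under R 4.3.3 was used for 1 linear model of all arrays with a mean per group, moderated with a variance trend. Benjamini-Hochberg adjustment ran over the 11360 of 18194 genes above the array median in 3 or more arrays. Errors of differences are the model's standard errors. The labels do not state that each array is a separate animal, so a p-value reflects only how much these samples vary. A probe set shared by several genes was left out, and levels were not compared between genes.

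The genes, role classes, marker lists and alternatives were chosen with earlier results of these data known. Values are given for genes called as labelled and, per class, the 3 with the smallest p in the averaged comparison, and genes called with the 2 arrays left out are named. The other lists give up to 4 genes with the smallest p. On simulated data, where 200 of 11360 genes were changed, the model called 69.5% (VALI against Control) and 85.5% (averaged comparison) of those changed by 1 on the log2 scale, and 94.0% and 97.0% of those changed by 2. In the real arrays as labelled, VALI against Control called 0.0% of all genes. Whether the recovery just given holds for the real arrays, 2 of which went against their label for Il6, was not tested. Figures were drawn with matplotlib 3.10.9.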

Additional observations from a re-analysis of the deposited data

Results flagged for a closer look

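In 4 of 66 groups of 4 arrays (33 genes in VALI and in Control), 1 array stood apart from the other 3. This was by Dixon's test, whose critical value is 0.829, and chance alone marks about 1 group in 20. VALI 3 was low for Cdh5, at a log2 level of 12.34 (ratio 0.924). Control 4 was high for Nostrin at 10.82 (ratio 0.837) and for Bmx at 8.58 (ratio 0.881). Control 1 was high for Car4 at 13.28 (ratio 0.882).

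The ventilation response of Gpr4 ran in opposite directions in the lungs with and without the PBEF+/- label, by 1.21 on the log2 scale as labelled, with every array of VILI PBEF+/- above PBEF+/- and every array of VALI below Control. The limma test of this difference did not pass (adjusted p = 0.732). VILI PBEF+/- and PBEF+/- also differed in age, and Gpr4 had 1 probe set. The share of all genes separated in this way was not counted.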

How the results depend on the processing

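As labelled, the averaged comparison called 5 endothelial genes. The count was 0 with no filter on low values, 3 with no variance trend, 2 with the mean over probe sets, 21 with array weights, 0 with the sex pattern as a covariate and 18 with the 2 arrays left out, and 0 to 16 when single arrays were left out. It was 4 to 7 with a stricter filter, quantile normalization, median centring, robust moderation, the female-pattern arrays alone and the replicate block (7). Of 19 same-numbered pairs of arrays, 7 had deviations correlated above 0.1, over a range of -0.35 to 0.32. Pairs with different numbers were not compared, so whether replicate numbers pair the arrays was not settled. The block changed no other count of calls. VALI against Control (0 as labelled) called 22 with array weights, 13 with the 2 arrays left out, 1 with the female-pattern arrays alone and 0 to 5 without single arrays. VILI PBEF+/- against PBEF+/- (0) called 16 with array weights, 13 with the 2 arrays left out and 0 to 9 without single arrays. VILI PBEF+/- against VALI (0) called 3, and the difference between both responses (0) called 1, with array weights. Calls over all genes moved with the setting as well. In the averaged comparison 4.27% were lower and 4.09% higher as labelled, against 24.6% and 14.9% with the 2 arrays left out. A count alone therefore does not set the endothelial genes apart. The shares of all genes with array weights are not given here, and the counts in that setting are not read as a result about the endothelial genes.

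Some alternatives were chosen after the data were seen, all with the 2 arrays left out. Calls over all genes moved with these settings too, so a count alone does not set the endothelial genes apart. With the sex pattern in the model, the averaged comparison called 15, VALI against Control 12, VILI PBEF+/- against PBEF+/- 9 and VILI PBEF+/- against VALI 1. With the mean over probe sets these counts were 15, 7, 12 and 1, and with the female-pattern arrays alone 16, 12, 11 and 1. Leaving out each further array gave 17 to 23 in the averaged comparison, 5 to 16 in VALI against Control and in VILI PBEF+/- against PBEF+/-, 0 to 9 in PBEF+/- against Control and in the difference between both responses, and 0 in VILI PBEF+/- against VALI. Where this leaves a lone PBEF+/- array, it is assumed to vary like the other groups.

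Of the named genes, 3 changed sign, none of them called as labelled. Car4 was -0.027 with quantile normalization, -0.13 with array weights, -0.018 with the sex pattern, -0.12 with the female-pattern arrays alone, and -0.080 and -0.16 in these last settings with the 2 arrays left out. It ranged over -0.11 to 0.11 without single arrays. Gpihbp1 was -0.027 with the sex pattern. Ephb4 ranged over -0.50 to 0.23 without single arrays. The cause of these changes was not tested. Sema3g and She kept a negative sign in all 29 alternatives and were called in 18 and 17 of them.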
